A study of Fragaria vesca with 9 samples.

Results

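Histone genes were followed in whole fruit RNA of the woodland strawberry, Fragaria vesca. A gene was a member when its description in the authors' table held the core histone domain, the linker histone domain, or a name of histone H1, H2A, H2B, H3 or H4. Histone methyltransferases, demethylases, acetylation enzymes and nuclear transcription factor Y subunits were left out. This gave 58 of the 34777 listed genes. Their type was read from the best Swiss-Prot match in the same table, which made 5 of them H1, 11 H2A, 8 H2B, 18 H3 and 9 H4. The other 7 carried a histone domain without a histone name.

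The study compared fruit of 2 mutant lines of the transporter gene FvMATE51, Fvmate51-1 (line 1) and Fvmate51-2 (line 2), with fruit of wild type. Fruit of all 3 groups was taken at 26 days post-anthesis, and poly(A) RNA of each group was sequenced as 3 libraries. The kind of mutation in each line, the number of fruits per library and whether libraries of a group came from separate plants are not given in the sources used here. The p-values therefore measure the spread between these libraries, which may be technical. The FvMATE51 gene itself was not analysed here, so the mutant labels were not checked against it.

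Histones are the proteins that DNA is wound around. The core of a nucleosome holds H2A, H2B, H3 and H4, and H1 sits on the linker DNA between nucleosomes. Bulk core histones are made mostly while DNA is copied, whereas variants such as H3.3 and H2A.Z are put into chromatin outside replication as well. In plants most histone messages carry a poly(A) tail, so poly(A) libraries can record them. A receptacle fruit of strawberry also carries achenes, the true fruits with their seeds, whose embryo cells divide and hold stores.

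Levels are in FPKM, fragment numbers divided by the length of the gene and the depth of the library, as the authors deposited them. The 9 libraries held 31587667 to 51649115 fragments in listed genes. Wild type replicate 3 and line 1 replicate 2 stood apart from the other libraries of their groups on the third principal component, which carried 7.02% of the variance. Wild type replicate 3 was the highest of the wild type libraries for 39 of the 44 members that were tested, against 6781 of all 15890 genes tested, so the results below are also given without it where that matters. Genes known from ripe strawberry fruit were listed, namely those for anthocyanin synthesis, furanone aroma, cell wall loosening, metallothionein-like proteins and Fra a allergens. They summed to 25273 to 28762 FPKM in line 1, 30184 to 32981 FPKM in line 2 and 24646 to 29145 FPKM in wild type. How much each kind of gene gave to these sums was not examined. With both lines together, 27 of 45 tested genes on that list were lower and 4 higher, with a median log2 change of -0.35. Over all tested genes 18.1% were lower and 16.8% higher. The lines differed here. Line 1 had 25 lower and 3 higher, with a median of -0.35, and line 2 had 14 lower and 10 higher, with a median of -0.06. The shares of all tested genes were 19% lower and 16.5% higher in line 1, and 15.1% lower and 15.3% higher in line 2. Set against line 1, line 2 had 7 lower and 21 higher on that list. In that comparison 12.2% of all tested genes were lower and 15.4% higher. Of its 135 genes, 44 were at 0 in all libraries, among them copies of polygalacturonase and of Expansin-A22 and Expansin-A23.

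Of the 58 members, 44 reached 1 FPKM in at least 3 of the 9 libraries and were tested. The other 14 stayed at or below 0.774 FPKM in every library, and 5 of these were at 0 throughout. They were 1 H1, 1 H2A, 1 H2B, 6 H3 and 2 H4 genes and 3 members without a histone name. Tests were made with limma on log2(FPKM + 1) over all 15890 genes that passed the same filter. Calls were made where the p adjusted by Benjamini and Hochberg was under 0.05. Changes are given as mutant minus wild type on that log2 scale, with the standard error, and they understate the change of genes at a few FPKM.

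Most tested histone genes were lower in the mutant fruit than in wild type fruit. With the mean of both lines set against wild type, 26 of the 44 tested members fell, none rose and 18 were not called. That is 59.1% lower, while 18.1% of all tested genes were called lower and 16.8% higher. The median change of the members was -0.48, a fold of 0.716, against 0.00 for all tested genes. For 22 members all 6 mutant libraries lay below all 3 wild type libraries, and for none did they lie above them. Over all tested genes 12.4% were lower and 11.9% higher without overlap.

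Each line was also set against wild type by itself, and these comparisons share the wild type libraries. In line 1, 23 members fell and 2 rose, where 19% of all tested genes fell and 16.5% rose. In line 2, 29 members fell and none rose, where 15.1% of all tested genes fell and 15.3% rose. The median change was -0.36 in line 1 and -0.59 in line 2. Lower calls in each line singly were shared by 21 members. Without wild type replicate 3 the medians were -0.23 in line 1 and -0.46 in line 2, and 20 members were called lower in line 1 and 26 in line 2. With every library scaled to the same sum (TPM), 13.3% of all tested genes were lower in line 1 and 21.5% higher, and of the members 20 were lower and 4 higher. In bulk fruit RNA, fewer cells that express a histone gene and less of its RNA per cell cannot be told apart.

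**Figure D1:**
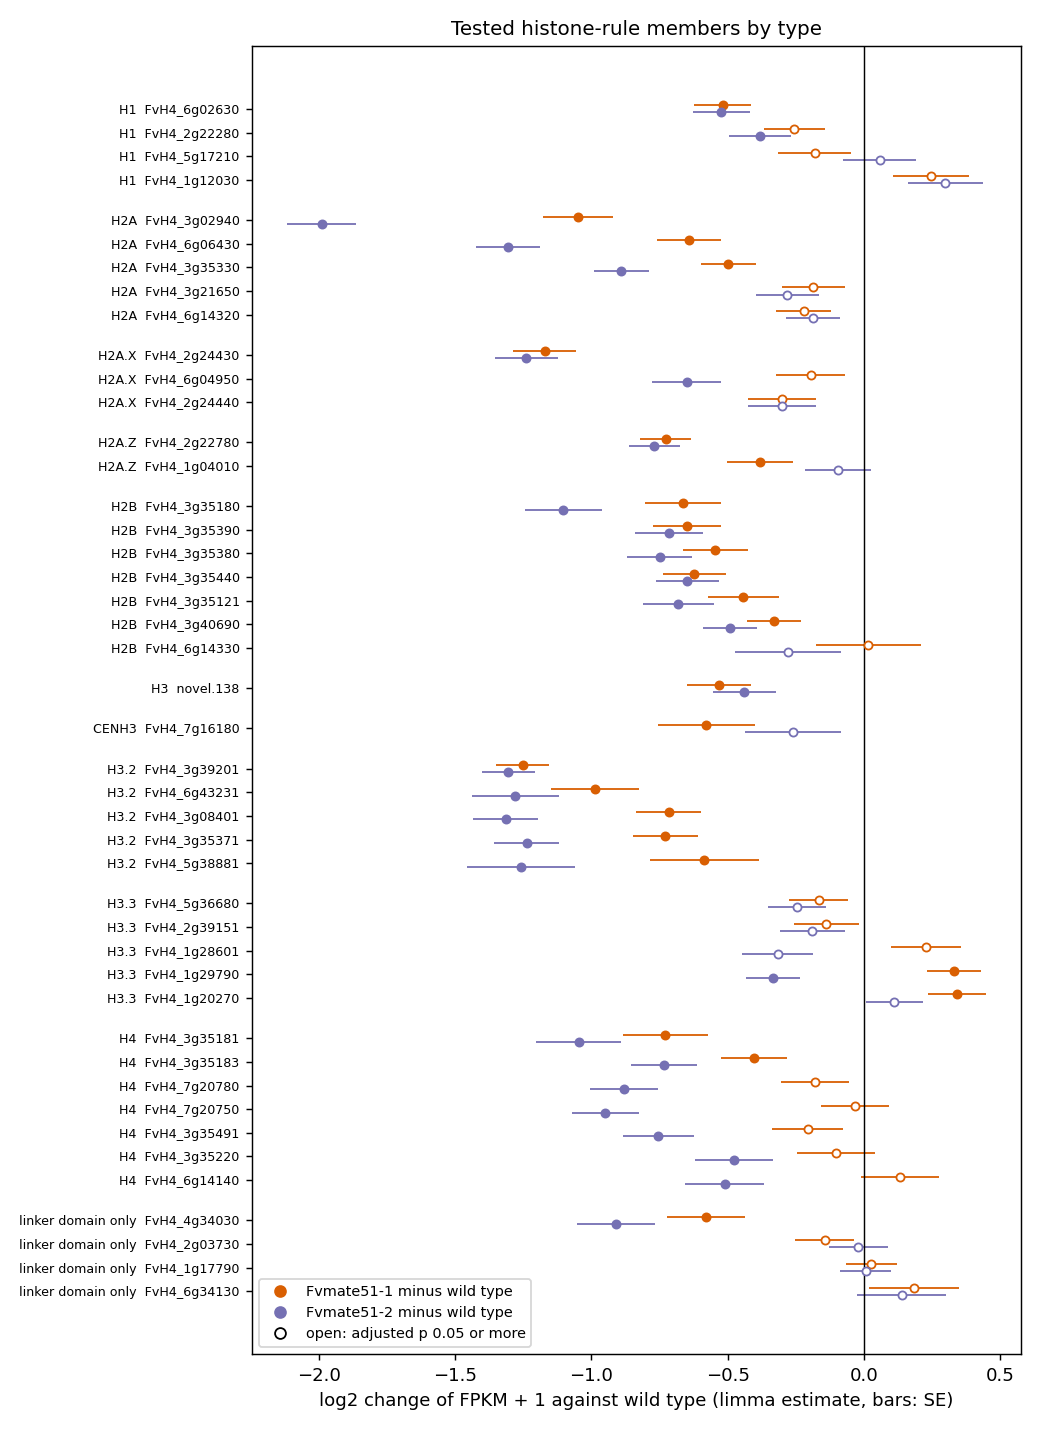
Change of each of the 44 tested members (one per line down the page, by type) in Fvmate51-1 and in Fvmate51-2 against wild type, on the log2(FPKM + 1) scale (x axis), with SE bars; filled points had an adjusted p under 0.05. All 5 H3.2 genes lie below 0 in both lines, and of the 5 H3.3 genes 2 were called higher in line 1 and 1 lower in line 2.

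The H3 genes split by type. H3.2 is the Swiss-Prot name of the plant form that is laid down as DNA is replicated, and H3.3 is the replacement form that is laid down at active genes throughout the cell cycle. All 5 tested H3.2 genes fell in line 1, in line 2 and in both lines together, with 4 in line 1 under 10 of 20 settings. None of the 5 tested H3.3 genes was called with both lines together, though 1 was called higher under TPM scaling, after a correction for gene length and without both libraries that stand apart. Median changes were -0.73 for H3.2 and 0.23 for H3.3 in line 1, and -1.28 for H3.2 and -0.25 for H3.3 in line 2.

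The H3.2 gene with the lowest p for both lines together was FvH4_3g39201, listed at chromosome 3, 33416773 to 33417806, on the plus strand. It stood at 36.02, 37.9 and 37.7 FPKM in line 1, 35.8, 38.0 and 33.8 FPKM in line 2, and 80.8, 85.4 and 105 FPKM in wild type. Every mutant library lay below every wild type library, and the lines overlapped. The change was -1.25 ± 0.10 (limma adjusted p = 5.4e-06) in line 1 and -1.30 ± 0.10 (limma adjusted p = 3.9e-06) in line 2.

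The H3.2 gene with the highest level was FvH4_3g08401, listed at chromosome 3, 4913944 to 4914967, on the plus strand. It stood at 91.4, 83.0 and 89.1 FPKM in line 1, 60.04, 63.8 and 50.1 FPKM in line 2, and 127, 139.8 and 172 FPKM in wild type. All mutant libraries were below wild type, and all of line 2 was below line 1. The change was -0.72 ± 0.12 (limma adjusted p = 0.0012) in line 1 and -1.31 ± 0.12 (limma adjusted p = 1.7e-05) in line 2.

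FvH4_3g35371, another H3.2 gene, lies in a run of histone genes on chromosome 3 that is described further on. It had 72.3, 59.3 and 63.7 FPKM in line 1, 43.8, 48.2 and 44.1 FPKM in line 2, and 94.5, 102 and 131 FPKM in wild type. The groups did not overlap, with line 2 lowest. Its change was -0.73 ± 0.12 (limma adjusted p = 0.0011) in line 1 and -1.24 ± 0.12 (limma adjusted p = 2.8e-05) in line 2.

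FvH4_6g43231, also H3.2, had 20.4, 19.2 and 18.2 FPKM in line 1, 17.1, 15.4 and 14.4 FPKM in line 2, and 31.9, 35.0 and 53.8 FPKM in wild type. Again no mutant library reached wild type. The change was -0.99 ± 0.16 in line 1 and -1.28 ± 0.16 in line 2. The listed span of this gene, chromosome 6, 33516225 to 33522898, on the minus strand, holds a further H3.2 gene on the same strand, FvH4_6g43250, which had at most 10 fragments in any library. The fifth tested H3.2 gene, FvH4_5g38881, averaged 8.37 ± 1.73 FPKM in line 1, 4.89 ± 1.26 FPKM in line 2 and 13.1 ± 3.198 FPKM in wild type. It fell in both lines too, but its line 1 call, -0.58 ± 0.20, held in 10 of 20 settings, with limma adjusted p of 0.03 to 0.28 over them.

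The most abundant H3.3 gene was FvH4_1g20270, listed at chromosome 1, 12507779 to 12509678, on the plus strand. It stood at 389, 463 and 374 FPKM in line 1, 358, 375 and 310.5 FPKM in line 2, and 300.5, 315 and 349 FPKM in wild type. Line 1 lay above wild type in all 3 libraries, while line 2 overlapped wild type. The change was 0.34 ± 0.11 (limma adjusted p = 0.029) in line 1, and that in line 2, 0.11 ± 0.11 (limma adjusted p = 0.44), was not called. Over the settings listed at the end the adjusted p in line 1 ran from 0.0007 to 0.084, above 0.05 in 6 of them.

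FvH4_1g29790, the next H3.3 gene described, had 185, 159.8 and 172 FPKM in line 1, 109.8, 119.8 and 96.2 FPKM in line 2, and 137, 125 and 149 FPKM in wild type. Line 1 was above and line 2 below wild type, with all of line 2 below all of line 1. It was the only member called higher in line 1, 0.33 ± 0.10 (limma adjusted p = 0.026), and lower in line 2, -0.33 ± 0.10 (limma adjusted p = 0.027). Over the settings the adjusted p ran from 0.0026 to 0.097 in line 1 and from 0.017 to 0.11 in line 2. Set directly against each other, line 2 was lower than line 1, with a change of -0.66 ± 0.10 (limma adjusted p = 0.00058).

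FvH4_1g28601 averaged 90.3 ± 3.67 FPKM in line 1, 62.2 ± 10.2 FPKM in line 2 and 77.5 ± 11.5 FPKM in wild type. Neither line was called against wild type, and line 2 was lower than line 1, -0.54 ± 0.13 (limma adjusted p = 0.0095). FvH4_2g39151 averaged 169 ± 11.6 FPKM in line 1, 163 ± 6.01 FPKM in line 2 and 188 ± 37.1 FPKM in wild type, and FvH4_5g36680 averaged 76.2 ± 1.03 FPKM in line 1, 72.3 ± 6.59 FPKM in line 2 and 86.3 ± 13.6 FPKM in wild type. Neither of these H3.3 genes was called in any of the comparisons.

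The make-up of the H3 messages also differed between mutant and wild type libraries. H3.3 genes held 80.1, 82.1 and 80.1% of the summed FPKM of H3.2 and H3.3 genes in line 1, 82.7, 82.5 and 82.4% in line 2 and 68.5, 67.1 and 65.8% in wild type. The groups averaged 80.8 ± 1.18% in line 1, 82.5 ± 0.124% in line 2 and 67.1 ± 1.34% in wild type (SD, n = 3 each). Mutant and wild type libraries did not overlap. Wild type replicate 3, at 65.8%, had the lowest share of the wild type libraries and so lay furthest from the mutant libraries. The share was formed from chosen genes and is given without a test.

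The centromere variant CENH3, which marks the place where spindle fibres attach, was near the filter. Its gene FvH4_7g16180 stood at 1.96, 1.73 and 0.825 FPKM in line 1, 2.08, 2.203 and 1.90 FPKM in line 2, and 3.03, 2.93 and 2.10 FPKM in wild type. Line 1 fell, -0.58 ± 0.18 (limma adjusted p = 0.028), and line 2, -0.26 ± 0.18 (limma adjusted p = 0.29), was not called. The call in line 1 was lost under 7 settings, with adjusted p of 0.055 to 0.08 in these and 0.013 to 0.08 over all settings. A further gene outside the reference annotation, on chromosome 2 and matched to histone H3-like 1, averaged 1.43 ± 0.228 FPKM in line 1, 1.59 ± 0.236 FPKM in line 2 and 2.51 ± 0.263 FPKM in wild type, and all 6 mutant libraries were below wild type.

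**Figure D2:**
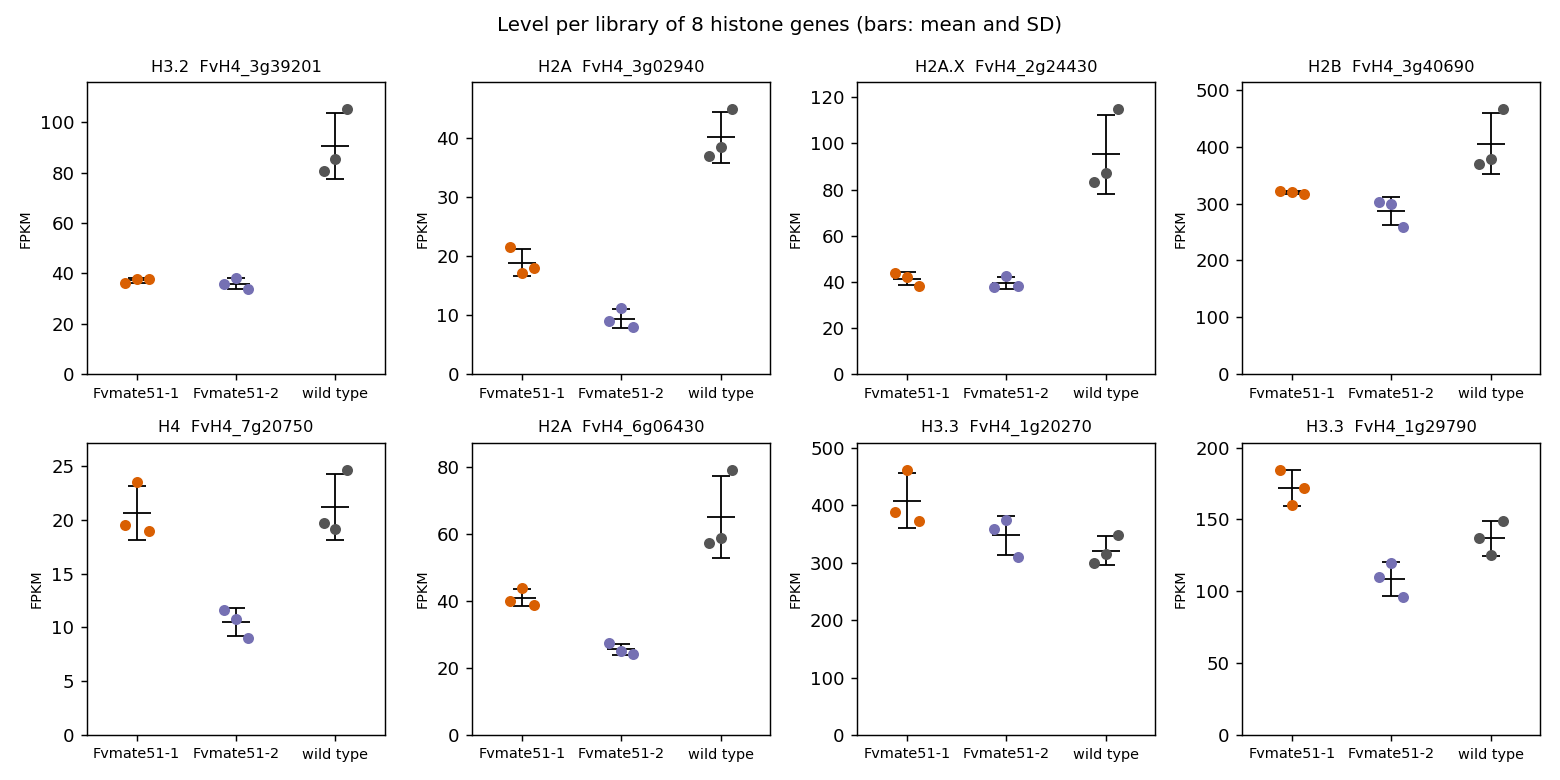
Level in FPKM (y axis) of single histone genes in each of the 9 libraries, by group (x axis), with the mean and SD. FvH4_3g39201 (H3.2) lies at 35.8 to 37.2 FPKM on average in the mutant lines and at 90.5 in wild type, whereas FvH4_1g20270 (H3.3) is above wild type in line 1.

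Of the H2A genes, 6 of 10 tested were lower in both lines together and none was higher. The lowest p for both lines together belonged to FvH4_3g02940, matched to H2A.3 and listed at chromosome 3, 1569121 to 1570130, on the plus strand. It stood at 21.5, 17.1 and 17.9 FPKM in line 1, 9.05, 11.1 and 7.96 FPKM in line 2, and 36.8, 38.4 and 44.9 FPKM in wild type. The groups were fully separate and line 2 was lowest. The change was -1.05 ± 0.13 (limma adjusted p = 0.00015) in line 1 and -1.99 ± 0.13 (limma adjusted p = 1.3e-06) in line 2. Between the lines the change was -0.94 ± 0.13 (limma adjusted p = 0.00029), lower in line 2 and the most negative change between the lines among the members.

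FvH4_6g06430, matched to H2A.1 of tomato, had 40.1, 43.8 and 38.8 FPKM in line 1, 27.3, 25.1 and 24.002 FPKM in line 2, and 57.3, 58.7 and 79.2 FPKM in wild type. All of line 2 lay below all of line 1, and all of line 1 below wild type. The change was -0.64 ± 0.12 (limma adjusted p = 0.0021) in line 1 and -1.30 ± 0.12 (limma adjusted p = 1.6e-05) in line 2. FvH4_3g35330, matched to H2A.2, averaged 97.9 ± 2.24 FPKM in line 1, 74.6 ± 6.26 FPKM in line 2 and 139.6 ± 19.9 FPKM in wild type and also fell in both lines. The remaining tested genes of this kind, FvH4_3g21650 and FvH4_6g14320, were called in none of the comparisons.

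H2A.X is the form that is phosphorylated beside DNA breaks. Its most abundant gene, FvH4_6g04950, was the member with the highest H2A level. It stood at 325, 367 and 297 FPKM in line 1, 252, 248 and 219.9 FPKM in line 2, and 339, 341 and 460.5 FPKM in wild type. Line 1 overlapped wild type only through its replicate 2, a library that stood apart from its group. All of line 2 lay below wild type. The change was -0.20 ± 0.13 in line 1, not called, and -0.65 ± 0.13 (limma adjusted p = 0.0032) in line 2.

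On chromosome 2 a pair of H2A.X genes lie next to each other on the list, FvH4_2g24430 at chromosome 2, 19945898 to 19946733, on the plus strand and FvH4_2g24440 at chromosome 2, 19947329 to 19948184, on the plus strand. FvH4_2g24430 had 43.9, 42.0 and 38.4 FPKM in line 1, 37.9, 42.4 and 38.1 FPKM in line 2, and 83.5, 87.3 and 115 FPKM in wild type. Every mutant library was far below wild type, and the lines overlapped. Its change was -1.17 ± 0.12 (limma adjusted p = 3.3e-05) in line 1 and -1.24 ± 0.12 (limma adjusted p = 2.1e-05) in line 2. Its neighbour FvH4_2g24440 averaged 32.2 ± 2.79 FPKM in line 1, 32.2 ± 2.98 FPKM in line 2 and 40.2 ± 7.54 FPKM in wild type and was called in neither line. The difference between these neighbours was not tested.

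H2A.Z replaces H2A at the start of many genes. FvH4_2g22780, one of its genes, had 60.4, 63.1 and 54.1 FPKM in line 1, 60.9, 60.1 and 51.8 FPKM in line 2, and 91.2, 96.6 and 108 FPKM in wild type. No mutant library overlapped wild type, and the lines lay together. The change was -0.73 ± 0.09 (limma adjusted p = 0.00024) in line 1 and -0.77 ± 0.09 (limma adjusted p = 0.00016) in line 2. The other H2A.Z gene, FvH4_1g04010, had 31.3, 32.8 and 27.7 FPKM in line 1, 36.8, 40.9 and 34.8 FPKM in line 2, and 34.9, 37.7 and 48.8 FPKM in wild type. Line 2 overlapped wild type. Only the change in line 1 was called, -0.38 ± 0.12 (limma adjusted p = 0.032), and it was lost under 7 settings, with adjusted p of 0.055 to 0.11 in these and 0.018 to 0.11 over all settings.

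Of the H2B genes, 6 of 7 tested fell in line 1 and 6 of 7 in line 2, with medians of -0.54 in line 1 and -0.68 in line 2. The most abundant was FvH4_3g40690, matched to H2B.7. It stood at 322, 321 and 317 FPKM in line 1, 302, 299 and 259.7 FPKM in line 2, and 370.3, 378 and 467 FPKM in wild type. Each mutant library lay below wild type by a modest step. The change was -0.33 ± 0.10 (limma adjusted p = 0.026) in line 1 and -0.49 ± 0.10 (limma adjusted p = 0.0041) in line 2. The call in line 1 was lost under 4 settings, with adjusted p of 0.053 to 0.068 in these and 0.0093 to 0.068 over all settings. The line 1 call of FvH4_3g35121 held in 17 of 20 settings.

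FvH4_3g35180, the H2B gene with the lowest p for both lines together, had 47.5, 52.5 and 44.7 FPKM in line 1, 39.7, 37.6 and 29.5 FPKM in line 2, and 66.5, 72.6 and 94.1 FPKM in wild type. The mutant libraries were all lower, and line 2 was below line 1. The change was -0.66 ± 0.14 (limma adjusted p = 0.0049) in line 1 and -1.10 ± 0.14 (limma adjusted p = 0.0002) in line 2. Of the other H2B genes that fell, FvH4_3g35440 averaged 60.9 ± 5.61 FPKM in line 1, 59.96 ± 6.86 FPKM in line 2 and 94.6 ± 12.4 FPKM in wild type. FvH4_3g35390 averaged 99.2 ± 7.69 FPKM in line 1, 94.9 ± 9.87 FPKM in line 2 and 157 ± 29.0 FPKM in wild type. The H2B gene not called, FvH4_6g14330, was also the weakest of those tested, at 10.9 ± 0.679 FPKM in line 1, 8.87 ± 2.42 FPKM in line 2 and 10.9 ± 2.93 FPKM in wild type.

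All 7 tested H4 genes fell in line 2, 2 fell in line 1 and 5 fell with both lines together. The line 2 call held in 13 of 20 settings for FvH4_3g35220 and in 18 of 20 for FvH4_6g14140, with limma adjusted p up to 0.11 and 0.082. In the direct comparison 4 of the 7 were lower in line 2 than in line 1. The median change was -0.18 in line 1 and -0.75 in line 2. All 7 were matched to the same H4 entry of Swiss-Prot, so reads of near-identical copies may have been split among them or dropped, and the level of a single copy is uncertain.

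The H4 gene with the lowest p for both lines together was FvH4_3g35181, listed at chromosome 3, 30359829 to 30360140, on the plus strand. It had 89.0, 87.3 and 74.6 FPKM in line 1, 69.9, 69.4 and 61.2 FPKM in line 2, and 118, 121 and 187 FPKM in wild type. All 6 mutant libraries lay below wild type. The change was -0.73 ± 0.16 (limma adjusted p = 0.0053) in line 1 and -1.05 ± 0.16 (limma adjusted p = 0.00061) in line 2. FvH4_3g35183 had 188, 216 and 179 FPKM in line 1, 160.5, 163 and 139 FPKM in line 2, and 235, 233 and 309 FPKM in wild type. Its libraries did not overlap with wild type either. The change was -0.40 ± 0.12 (limma adjusted p = 0.026) in line 1 and -0.73 ± 0.12 (limma adjusted p = 0.0012) in line 2. The call in line 1 was lost under 6 settings, with adjusted p of 0.051 to 0.09 in these and 0.0033 to 0.09 over all settings.

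On chromosome 7, FvH4_7g20780 stood at 194, 235 and 184 FPKM in line 1, 133, 137 and 107 FPKM in line 2, and 203, 241 and 251 FPKM in wild type. Line 1 overlapped wild type only through its replicate 2, a library that stood apart from its group. Line 2 was lowest throughout. Line 1 was not called, -0.18 ± 0.13 (limma adjusted p = 0.29), while line 2 fell, -0.88 ± 0.13 (limma adjusted p = 0.00045). Its near neighbour FvH4_7g20750 had 19.5, 23.5 and 19.0 FPKM in line 1, 11.6, 10.8 and 9.06 FPKM in line 2, and 19.7, 19.2 and 24.7 FPKM in wild type. Here too only line 2 was apart, with -0.95 ± 0.12 (limma adjusted p = 0.00024) against wild type and -0.91 ± 0.12 (limma adjusted p = 0.0003) against line 1.

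Levels were also summed over the members of each type, without a test. Of the 6 sums, H3.2 was furthest below wild type in both lines. Summed H3.2 was 218 ± 11.9 FPKM in line 1, 160 ± 12.9 FPKM in line 2 and 400 ± 70.8 FPKM in wild type (SD, n = 3 each). These are 0.546 and 0.400 of wild type in lines 1 and 2. Without wild type replicate 3 they are 0.606 and 0.444. Summed H3.3 was 916 ± 35.6 FPKM in line 1, 754 ± 63.3 FPKM in line 2 and 811 ± 96.0 FPKM in wild type, ratios of 1.13 and 0.931. Without wild type replicate 3 the H3.3 ratios are 1.21 and 0.999.

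Summed H2A was 885 ± 53.0 FPKM in line 1, 742 ± 50.3 FPKM in line 2 and 1171 ± 193 FPKM in wild type. Summed H2B was 646 ± 21.1 FPKM in line 1, 578 ± 54.1 FPKM in line 2 and 898 ± 141 FPKM in wild type. Both sums lay below every wild type library in all mutant libraries. Wild type replicate 3 was the highest library in both, at 1392 FPKM for H2A and 1058 FPKM for H2B. Wild type replicates 1 and 2 had 1044 and 1075 FPKM for H2A and 797 and 838 FPKM for H2B. Summed H4 was 708 ± 78.8 FPKM in line 1, 494 ± 48.4 FPKM in line 2 and 858 ± 144 FPKM in wild type. Line 1 overlapped wild type only through its replicate 2, at 795 FPKM, a library that stood apart from its group. The other line 1 libraries had 687 and 642 FPKM. Wild type had 747, 808 and 1021 FPKM, the last in replicate 3.

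**Figure D3:**
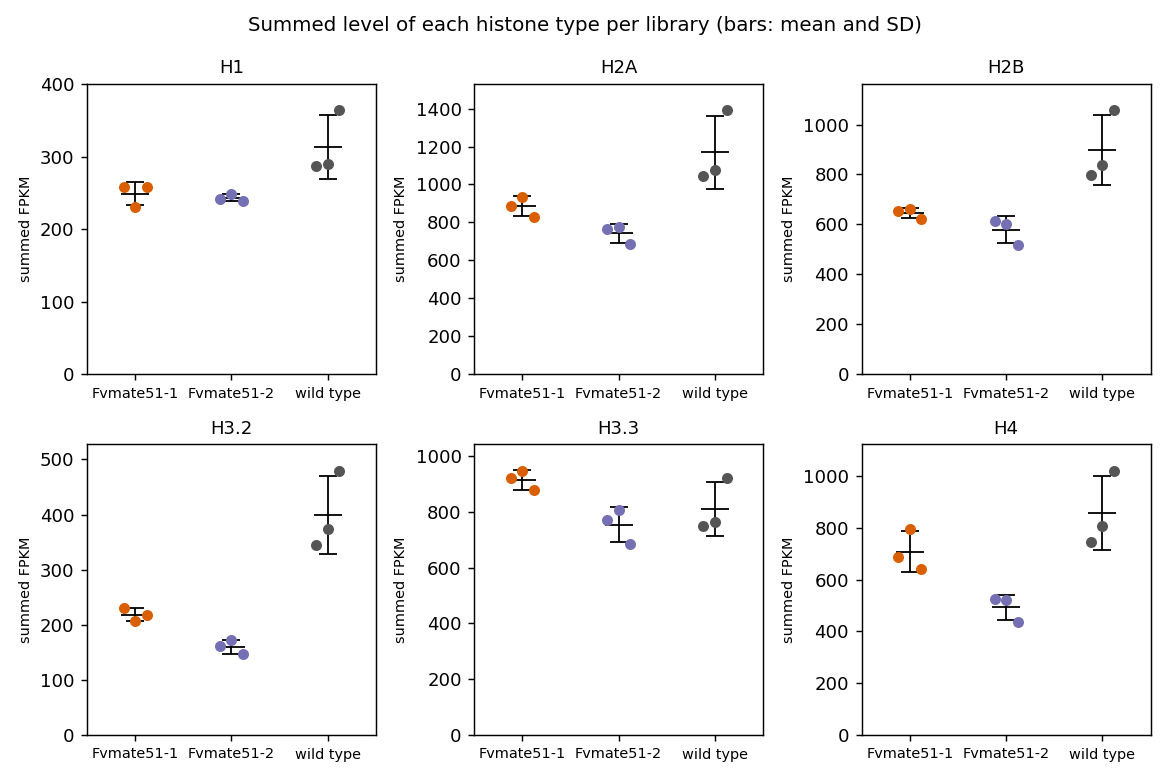
Summed FPKM (y axis) of all listed genes of each histone type in each of the 9 libraries, by group (x axis), with the mean and SD. The H3.2 panel shows all mutant libraries between 146 and 230 FPKM and wild type between 345 and 479 FPKM, and in the H3.3 panel wild type overlaps each mutant line while line 2 lies below line 1.

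Linker histone H1 compacts the fibre between nucleosomes. Of 4 tested H1 genes, 2 were lower with both lines together. FvH4_6g02630, matched to H1.2, had 100.4, 103 and 108 FPKM in line 1, 102, 109 and 98.7 FPKM in line 2, and 134, 138 and 179 FPKM in wild type. All mutant libraries lay below wild type. The change was -0.52 ± 0.10 (limma adjusted p = 0.0038) in line 1 and -0.52 ± 0.10 (limma adjusted p = 0.0037) in line 2.

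FvH4_2g22280, a second H1 gene, averaged 103 ± 14.0 FPKM in line 1, 93.4 ± 2.75 FPKM in line 2 and 123 ± 15.6 FPKM in wild type. With both lines together it was lower, -0.32 ± 0.10 (limma adjusted p = 0.028), but the call was lost under 4 settings, with adjusted p of 0.051 to 0.11 in these and 0.014 to 0.11 over all settings. The losses came with no filter and without wild type replicate 3, line 2 replicate 1 or line 2 replicate 2. FvH4_1g12030 averaged 24.02 ± 3.22 FPKM in line 1, 24.9 ± 2.39 FPKM in line 2 and 20.2 ± 4.07 FPKM in wild type and was not called, 0.27 ± 0.12 (limma adjusted p = 0.1). It was called higher under 4 settings, with adjusted p of 0.0068 to 0.032 in these and 0.0068 to 0.32 over all settings. Leaving out wild type replicate 3 was among the 4. FvH4_5g17210 averaged 18.5 ± 4.12 FPKM in line 1, 21.6 ± 0.541 FPKM in line 2 and 20.7 ± 0.790 FPKM in wild type and was not called. Summed H1 was 249 ± 16.05 FPKM in line 1, 243 ± 4.70 FPKM in line 2 and 314 ± 44.0 FPKM in wild type. Wild type replicate 3 was highest, at 364 FPKM, and wild type replicates 1 and 2 had 287 and 290 FPKM.

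The members with a linker domain but no histone name bind DNA in other ways. TRB proteins bind telomere repeats, and HMG-Y-related proteins bend AT-rich DNA. The TRB1 gene FvH4_2g03730 averaged 19.4 ± 3.17 FPKM in line 1, 21.1 ± 1.85 FPKM in line 2 and 21.4 ± 0.561 FPKM in wild type. A second TRB1 gene, FvH4_1g17790, averaged 15.7 ± 1.26 FPKM in line 1, 15.5 ± 1.30 FPKM in line 2 and 15.4 ± 1.22 FPKM in wild type, and the TRB4 gene FvH4_6g34130 averaged 5.26 ± 1.30 FPKM in line 1, 4.98 ± 0.273 FPKM in line 2 and 4.498 ± 1.02 FPKM in wild type. None of the 3 was called in any of the comparisons. The HMG-Y-related gene FvH4_4g34030 had 6.94, 5.34 and 7.54 FPKM in line 1, 4.56, 4.71 and 5.81 FPKM in line 2, and 8.93, 9.90 and 12.3 FPKM in wild type. All mutant libraries were below wild type, with changes of -0.58 ± 0.14 (limma adjusted p = 0.011) in line 1 and -0.91 ± 0.14 (limma adjusted p = 0.00087) in line 2.

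Line 2 was then set against line 1 directly, a comparison that leaves out wild type. Of the 44 members, 14 were lower in line 2 and none was higher, where 12.2% of all tested genes were lower and 15.4% higher. The median change of the members was -0.22 and that of all tested genes 0.01. The 14 were 4 H2A, 1 H2B, 5 H3 and 4 H4 genes, and no H1 gene was called. Without wild type replicate 3, which enters only through the shared estimate of spread, 19 were lower and 1 was higher, and without both libraries that stand apart 20 were lower and 2 higher. With every library scaled to the same sum (TPM), 16.3% of all tested genes were lower and 11.1% higher in line 2, and of the members 21 were lower and none higher. Line 2 replicate 3 was the lowest of its group for 37 of the 44 members, and the same count over all tested genes is not given here. Of the 14 lower calls, 10 held in every setting, and leaving out line 2 replicate 3 was among the settings.

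**Figure D4:**
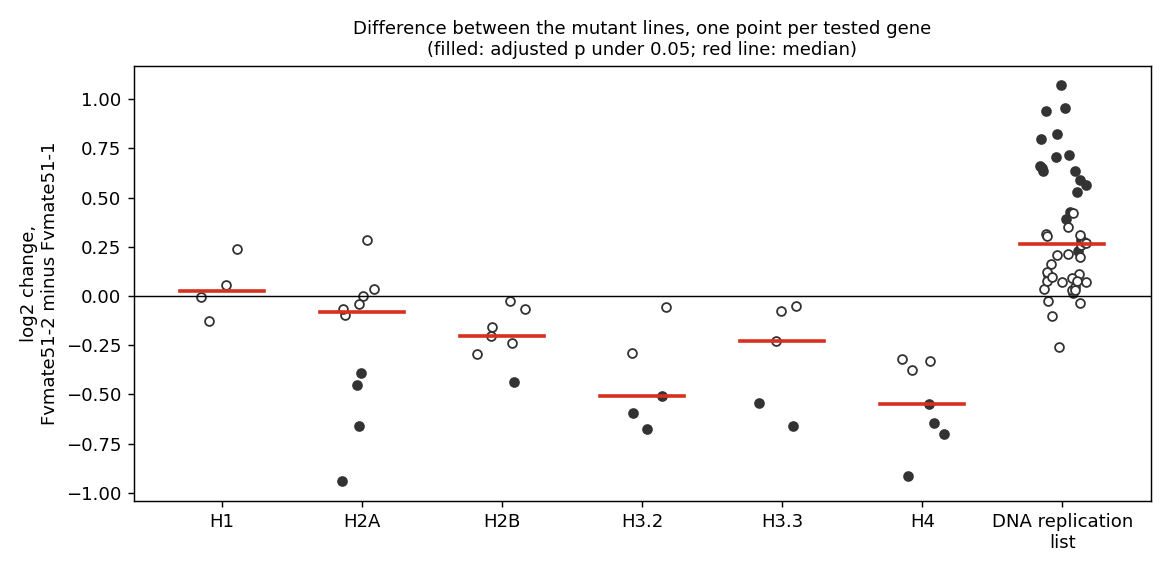
Change of each tested gene in Fvmate51-2 against Fvmate51-1 on the log2(FPKM + 1) scale (y axis), by histone type and for the DNA replication list (x axis); filled points had an adjusted p under 0.05 and red lines are medians. The 14 filled histone points all lie below 0, and the 18 filled replication points all lie above 0.

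Many members lay together in the genome. On chromosome 3 there were 22 of the 58, of which 16 were tested. A run of 11 members lies between positions 30324804 and 30529453 of chromosome 3 as the authors' table lists them, a stretch of 204.65 kilobases. The genome build is not given in the sources used here, and the window was drawn after the positions of the members were seen. It holds 5 H2B genes, 1 H2A gene, 1 H3.2 gene and 4 H4 genes.

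All 11 members of the run were tested, and 10 were lower with both lines together, none higher. Line 1 had 9 lower and line 2 had 11 lower. Their median change was -0.65. The same stretch lists 30 other genes, of which 14 were tested, 2 lower and 2 higher, with a median of -0.00. The histone genes of the run fell, while the median of the genes between them stayed near 0.

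**Figure D5:**
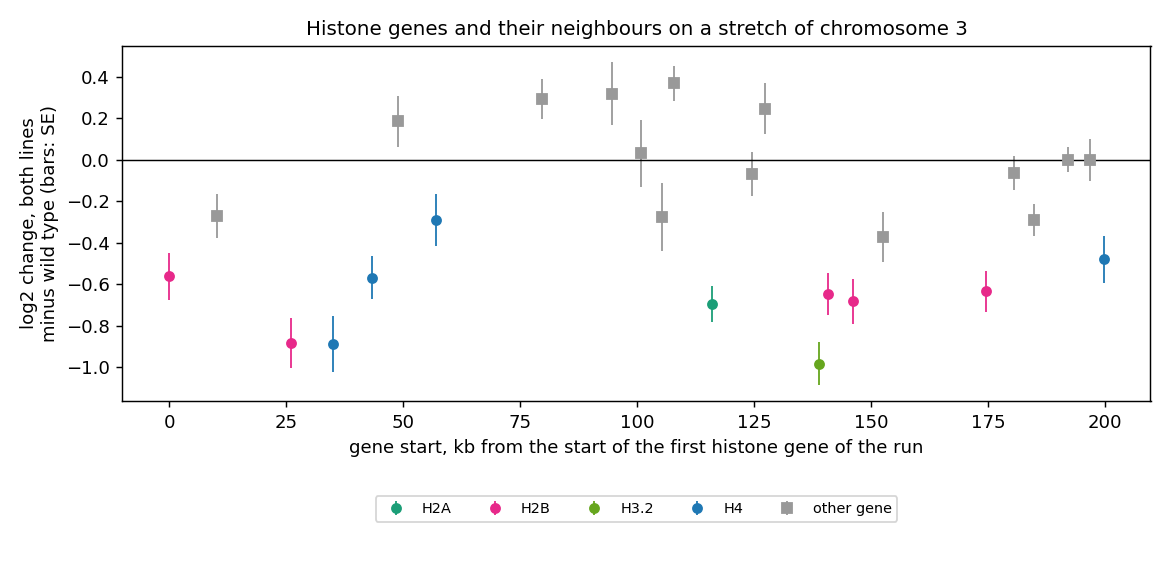
Change of both lines together against wild type (y axis, log2 of FPKM + 1) for each tested gene of the chromosome 3 run, by distance in kilobases from the start of the first histone gene (x axis), with SE bars; circles are histone genes and squares other genes. There, 10 of the 11 histone genes were called lower, against 2 of the 14 other genes.

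Gene models also differed between the types. Of 51 members named as histones, 22 had a span equal to their listed length, as genes without introns do. Of those tested, 12 of 17 with such a model and 13 of 23 with a longer span fell with both lines together. Intron-free models were found for 6 of 8 H2B, 6 of 9 H4, 6 of 7 H3.2 and 2 of 8 H3.3 genes, and for none of the H1 and H2A genes. Each of the tested intron-free H3.3 genes was lower in line 2 than in line 1.

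Genes for copying DNA are used in the same phase of the cell cycle as bulk histone genes. The replication list held MCM helicase subunits, clamp and polymerase subunits, replication protein A and nucleotide-making enzymes. Of its 48 tested genes, 29 were lower and 1 was higher with both lines together, with a median of -0.51. The shares of all tested genes were 18.1% lower and 16.8% higher. Line 1 had 31 lower and line 2 had 23 lower, where 19% and 15.1% of all tested genes were lower. Thymidine kinase gene FvH4_6g41260 averaged 26.9 ± 1.25 FPKM in line 1, 27.6 ± 2.89 FPKM in line 2 and 60.8 ± 7.01 FPKM in wild type. The MCM4 gene FvH4_2g09990, a helicase subunit, averaged 4.05 ± 0.0612 FPKM in line 1, 6.84 ± 0.0362 FPKM in line 2 and 11.2 ± 0.876 FPKM in wild type.

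The direct comparison of the lines gave calls of opposite sign for replication and histone genes. Of the 48 replication genes 18 were higher in line 2 than in line 1 and none was lower, with a median of 0.26. The histone members had 14 lower and none higher. Of all tested genes 12.2% were lower and 15.4% higher in line 2 than in line 1.

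Histone chaperones carry histones to DNA. Of 20 tested chaperone genes, 5 were lower, 2 higher and 13 not called with both lines together, with a median of 0.05. Over all tested genes 18.1% were lower and 16.8% higher. The chaperone genes described here were picked by low adjusted p and do not stand for the list. The CAF-1 subunits, which load H3 and H4 behind the replication fork, were among the lower ones. FAS1, FvH4_6g00081, averaged 3.203 ± 0.351 FPKM in line 1, 4.84 ± 0.148 FPKM in line 2 and 6.42 ± 0.560 FPKM in wild type. FAS2, FvH4_1g24150, averaged 3.61 ± 0.136 FPKM in line 1, 5.85 ± 0.332 FPKM in line 2 and 7.004 ± 0.787 FPKM in wild type.

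Lists made from words for other cell types and for ribosomal proteins were set beside these results. Amounts of cells were not measured. The achene and embryo list had 31 of 60 tested genes lower and 5 higher with both lines together, and its sum was 2442 to 3072 FPKM in line 1, 2775 to 2803 FPKM in line 2 and 3363 to 3776 FPKM in wild type. Of the 107 genes listed, 13 were at 0 in all libraries, among them 2 oleosin genes and 1 vicilin gene, and some entered only through a domain shared with NDR1/HIN1-like proteins. Seed storage proteins and oleosins alone, picked out after the list was seen, summed to 186 to 280.5 FPKM in line 1, 164 to 219.6 FPKM in line 2 and 231 to 319 FPKM in wild type. Of their 9 tested genes, 7 were lower and 1 higher with both lines together, 2 were lower in line 1 and 8 in line 2. Of all tested genes 19% were lower in line 1 and 15.1% in line 2. Cytosolic ribosomal protein genes had 146 of 179 lower and 5 higher with both lines together, with a median of -0.41. For both lines together 18.1% of all tested genes were lower and 16.8% higher. Wild type replicate 3 was the highest wild type library for 167 of the 179, against 6781 of all 15890 genes tested. Their sums were 26387 to 29078 FPKM in line 1, 24695 to 27744 FPKM in line 2 and 32680 to 42479 FPKM in wild type. The part of achene cells, of fruit markers and of ribosomal protein genes in the histone result was not tested.

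Among the other lists, mitosis genes had 14 of 41 lower and 6 higher with both lines together. Epidermis genes had 3 of 15 lower and 3 higher, and genes of photosynthetic cells 2 of 16 lower and 2 higher. Over all tested genes 18.1% were lower and 16.8% higher. In the epidermis list 3 were lower and 7 higher in line 1, against 8 lower and 2 higher in line 2. In the photosynthetic list 5 were lower and 2 higher in line 1, and none was called in line 2. The shares of all tested genes were 19% lower and 16.5% higher in line 1, and 15.1% lower and 15.3% higher in line 2. Vascular genes had 1 of 4 lower and 3 higher. The sums of that list were 48.7 to 53.0 FPKM in line 1, 34.9 to 36.4 FPKM in line 2 and 24.7 to 29.9 FPKM in wild type. Of its 35 genes, 31 were below the filter and 11 were at 0 in all libraries. Among the latter were copies of the sucrose transporter SUC2 and of cellulose synthase subunit 8. The single pollen and anther gene tested was not called.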

How the data were processed

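Poly(A) RNA of fruit was sequenced on an Illumina platform. The authors deposited 1 table of FPKM values for 9 libraries with gene length, position and description, per the file headers. The tools were featureCounts 2.0.6, StringTie 2.2.3, HISAT2 2.2.1 and fastp, per the submitters' processing notes. The genome build, strand setting and treatment of reads that match several places are not given in the sources used here. Reads of near-identical histone copies, and of overlapping or antisense genes, may therefore be shared or lost.

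FPKM times gene length gave whole multiples of 1 fragment (within 0.02) for 100% of the values above 0, from which depth was recovered. Genes at 1 FPKM or more in at least 3 of 9 libraries were tested with limma 3.58.1 (trend, moderated statistics) in R 4.3.3 on log2(FPKM + 1), all 3 groups in 1 fit, two-sided, with Benjamini-Hochberg adjustment over 15890 genes. Members and lists were chosen with earlier results of these data known. Described singly are, per type, the most abundant member, up to 4 with the lowest adjusted p, up to 2 of those called between the lines, and all tested H3.3, CENH3 and H2A.Z genes. Other members named in the text were chosen after their values were seen. Related lists were made from words in the gene descriptions, which also caught some unrelated genes.

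Alternatives were a pseudocount of 0.1 FPKM, no filter, a mean of 5 FPKM, median-of-ratios and TPM scaling, a replicate block, voom on recovered fragments, a gene-length correction, only the groups compared, and leaving out libraries. The fit was also run on simulated data. These had a single fixed setting for the spread between libraries and no library that stood apart. They cannot show how the fit deals with such libraries. No sequences are shown, since the reference table used here matched 0 of the listed gene IDs.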

Additional observations from a re-analysis of the deposited data

Results flagged for a closer look

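For 14 members the change against wild type differed between the mutant lines, by the direct limma comparison of Fvmate51-2 with Fvmate51-1 (Benjamini-Hochberg adjusted p under 0.05 over all tested genes). All 14 log2 changes were negative, lower in line 2. Among H2A genes the change was -0.94 for FvH4_3g02940, -0.66 for FvH4_6g06430, -0.39 for FvH4_3g35330 and -0.45 for the H2A.X gene FvH4_6g04950. The H2B gene FvH4_3g35180 had -0.44. Among H4 genes the change was -0.91 for FvH4_7g20750, -0.70 for FvH4_7g20780, -0.64 for FvH4_6g14140 and -0.55 for FvH4_3g35491. The H3.2 genes FvH4_3g08401, FvH4_3g35371 and FvH4_5g38881 had changes of -0.60, -0.51 and -0.67. The H3.3 genes FvH4_1g29790 and FvH4_1g28601 had changes of -0.66 and -0.54. Of these calls, that of FvH4_3g35180 held in 12 of 20 settings, FvH4_5g38881 in 14, FvH4_6g04950 in 16 and FvH4_3g35330 in 18. The other 10 held in every setting.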

How the results depend on the processing

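With both lines together, 25 of the 26 lower members were called lower under every alternative that tested them; the exception was FvH4_2g22280. In Fvmate51-1, 17 of 23 lower calls and 0 of 2 higher calls held throughout, in Fvmate51-2 24 of 29 lower calls, and in Fvmate51-2 against Fvmate51-1 10 of 14. Members called in Fvmate51-2 against Fvmate51-1 came to 22 without both libraries that stand apart (20 lower and 2 higher), against 14 with all libraries. Replicate numbers did not pair the libraries: same-numbered libraries of different groups had correlations of their deviations from -0.26 to 0.16. With the replicate number as a block, 27 members were lower with both lines together, 19 were lower and 1 higher in Fvmate51-1, 27 were lower in Fvmate51-2 and 11 were lower in Fvmate51-2 against Fvmate51-1. Over 2467 comparisons of a member picked by the rule for single description with an alternative, 61 lost a call and 49 gained one. Members described outside that rule, such as FvH4_5g38881 and FvH4_3g35220, also lost calls and are not in these counts. No called value in these comparisons changed sign, and 61 values not called either way did. Leaving out a library from a group leaves 2, and the shared spread then rests on fewer libraries. Members under 1 FPKM were not tested, and depth limits what can be said of them.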
